A study of Sus scrofa with 599 samples.

Results

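The 9 genes described here, INSR, IRS1, IRS2, PIK3R1, AKT2, TBC1D4, PDE3B, FOXO1 and GRB14, make up a core of the insulin signalling pathway, and were taken by symbol from the 21280 protein-coding genes (PCGs) of the expression table. Their expression was followed across 12 groups of adipose tissue samples from Bama miniature pigs. In every group the pigs were females, aged 2 years at the start of the experiment. The normal condition (NC) pigs kept a normal diet, the weight-gain (WG) pigs ate a high-fat diet for 22 weeks, and the weight-loss (WL) pigs were fed like the WG pigs for 22 weeks and were then held at 10% of the normal caloric intake for 12 weeks. WL pigs were drawn from those on the high-fat diet, so weight loss and the 12 weeks of added time cannot be told apart, and no males were studied. In each diet group, 3 visceral adipose tissues (VATs) and 1 subcutaneous adipose tissue (SAT) were sampled: greater omentum (GOM), mesenteric adipose (MAD), retroperitoneal adipose (RAD) and the upper layer of backfat (ULB). RNA-seq libraries numbered, for NC, WG and WL, 9, 45 and 10 (GOM), 12, 36 and 10 (MAD), 12, 39 and 10 (RAD) and 5, 38 and 10 (ULB), and chromatin contacts were read by Hi-C in 240 samples.

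Insulin binds the receptor tyrosine kinase encoded by INSR, which phosphorylates the docking proteins IRS1 and IRS2. These recruit phosphatidylinositol 3-kinase, whose regulatory subunit is encoded by PIK3R1, and its lipid product activates the kinase AKT2. In fat cells AKT2 phosphorylates TBC1D4, which lets GLUT4 reach the cell surface, activates PDE3B, which degrades cAMP and so restrains lipolysis, and keeps the transcription factor FOXO1 out of the nucleus. GRB14 is an adaptor that binds the activated receptor and inhibits it.

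The sum of counts on PCGs ran from 3337098 to 22939420 per library, with a median of 16791659. The share of the summed expression values that fell on PCGs was below 88% in 40 libraries and at or above it in 196. The 40 included 7 of the 9 NC GOM libraries, so that high-share NC GOM is represented by 2 libraries. In MAD, RAD and ULB, 2, 6 and 2 NC libraries were below 88%. In GOM, MAD, RAD and ULB the numbers were 3, 2, 0 and 1 for WG and 6, 6, 2 and 3 for WL. A low share thus went partly with diet. All 8 adipocyte markers were detected in every library. Their summed level was lowest in NC GOM, with a median of 8518 TPM (transcripts scaled to the library total and to transcript length) against 15570 to 20850 TPM in the other NC depots. In 1 NC MAD library (replicate 1) the sum of 5 smooth muscle markers was 12920 TPM, against at most 3484 TPM in the other NC MAD libraries. These are bulk tissues, in which fewer cells of a type and less RNA per cell cannot be told apart.

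The promoters of 4 of the genes are shown because they mark the range of sequence found among the members and hold the motif matches described next. Each run is the 250 bases before the annotated start of the gene (RefSeq, build Sscrofa11.1), read 5′ to 3′ on the strand of the gene. In the INSR run, at chr2:71796959-71797208 on the plus strand, capitals mark the reverse complement of GTAAACA, the core that FOXO factors bind. In the GRB14 run, at chr15:71247427-71247676 on the minus strand, capitals mark GC boxes (GGGCGG on either strand), some of which overlap. The AKT2 run, at chr6:48620473-48620722, and the TBC1D4 run, at chr11:47760929-47761178, both on the minus strand, hold neither motif.
INSR: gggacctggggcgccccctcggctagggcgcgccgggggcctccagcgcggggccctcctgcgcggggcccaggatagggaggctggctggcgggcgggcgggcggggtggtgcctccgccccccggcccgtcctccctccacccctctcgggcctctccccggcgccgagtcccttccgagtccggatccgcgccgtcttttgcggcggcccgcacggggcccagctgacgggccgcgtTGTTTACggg
GRB14: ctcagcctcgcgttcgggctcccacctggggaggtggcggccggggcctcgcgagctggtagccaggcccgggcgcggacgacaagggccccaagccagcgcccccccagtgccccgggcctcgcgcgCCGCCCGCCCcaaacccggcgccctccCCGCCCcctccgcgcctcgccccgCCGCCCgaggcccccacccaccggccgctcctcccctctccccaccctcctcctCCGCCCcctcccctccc
AKT2: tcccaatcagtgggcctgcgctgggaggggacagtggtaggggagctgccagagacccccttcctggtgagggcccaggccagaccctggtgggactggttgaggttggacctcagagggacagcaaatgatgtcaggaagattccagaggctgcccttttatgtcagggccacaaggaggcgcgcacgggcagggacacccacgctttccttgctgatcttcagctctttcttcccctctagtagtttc
TBC1D4: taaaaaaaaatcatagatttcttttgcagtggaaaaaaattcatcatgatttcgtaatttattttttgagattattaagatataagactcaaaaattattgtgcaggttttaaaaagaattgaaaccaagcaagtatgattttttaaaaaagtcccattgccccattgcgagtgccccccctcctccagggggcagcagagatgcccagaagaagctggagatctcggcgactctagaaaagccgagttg

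The 9 promoters differed widely in base composition, from 37.2% GC in TBC1D4 to 82% in GRB14 and IRS2, against a median of 57.6% over 19534 promoters of the same length. GTAAACA, searched on both strands, occurred in INSR alone among the members, from 10 to 4 bases before the start, and in 2.27% of all promoters. GC boxes occurred in 7 members, with 5 matches in GRB14 and in PIK3R1, and in 45.9% of all promoters. TGTTTTG, a core of insulin response elements, and the E-box CACGTG occurred in no member and in 4.17% and 6.39% of all promoters. A match describes the letters in this window and is no evidence of binding.

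Levels of the 9 genes differed by more than an order of magnitude. AKT2 was the most abundant, with a mean of 172 TPM over all libraries, followed by PIK3R1 (135.9 TPM), TBC1D4 (89.6 TPM) and PDE3B (74.7 TPM). IRS2 (45.3 TPM) and INSR (37.4 TPM) were intermediate, as was FOXO1, and IRS1 reached 11.2 TPM and GRB14 3.19 TPM. GRB14 also varied most between groups, from a mean of 1.17 TPM in WL RAD to 8.16 TPM in NC MAD, whereas the highest and lowest group means of the other 8 genes differed by 1.35-fold (PIK3R1) to 2.14-fold (AKT2). When the 12 group means of a gene were put in order, neighbours lay within 1 SD of each other in 11 of 11 steps for 7 genes and in 10 of 11 steps for TBC1D4 and GRB14.

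**Figure D1:**
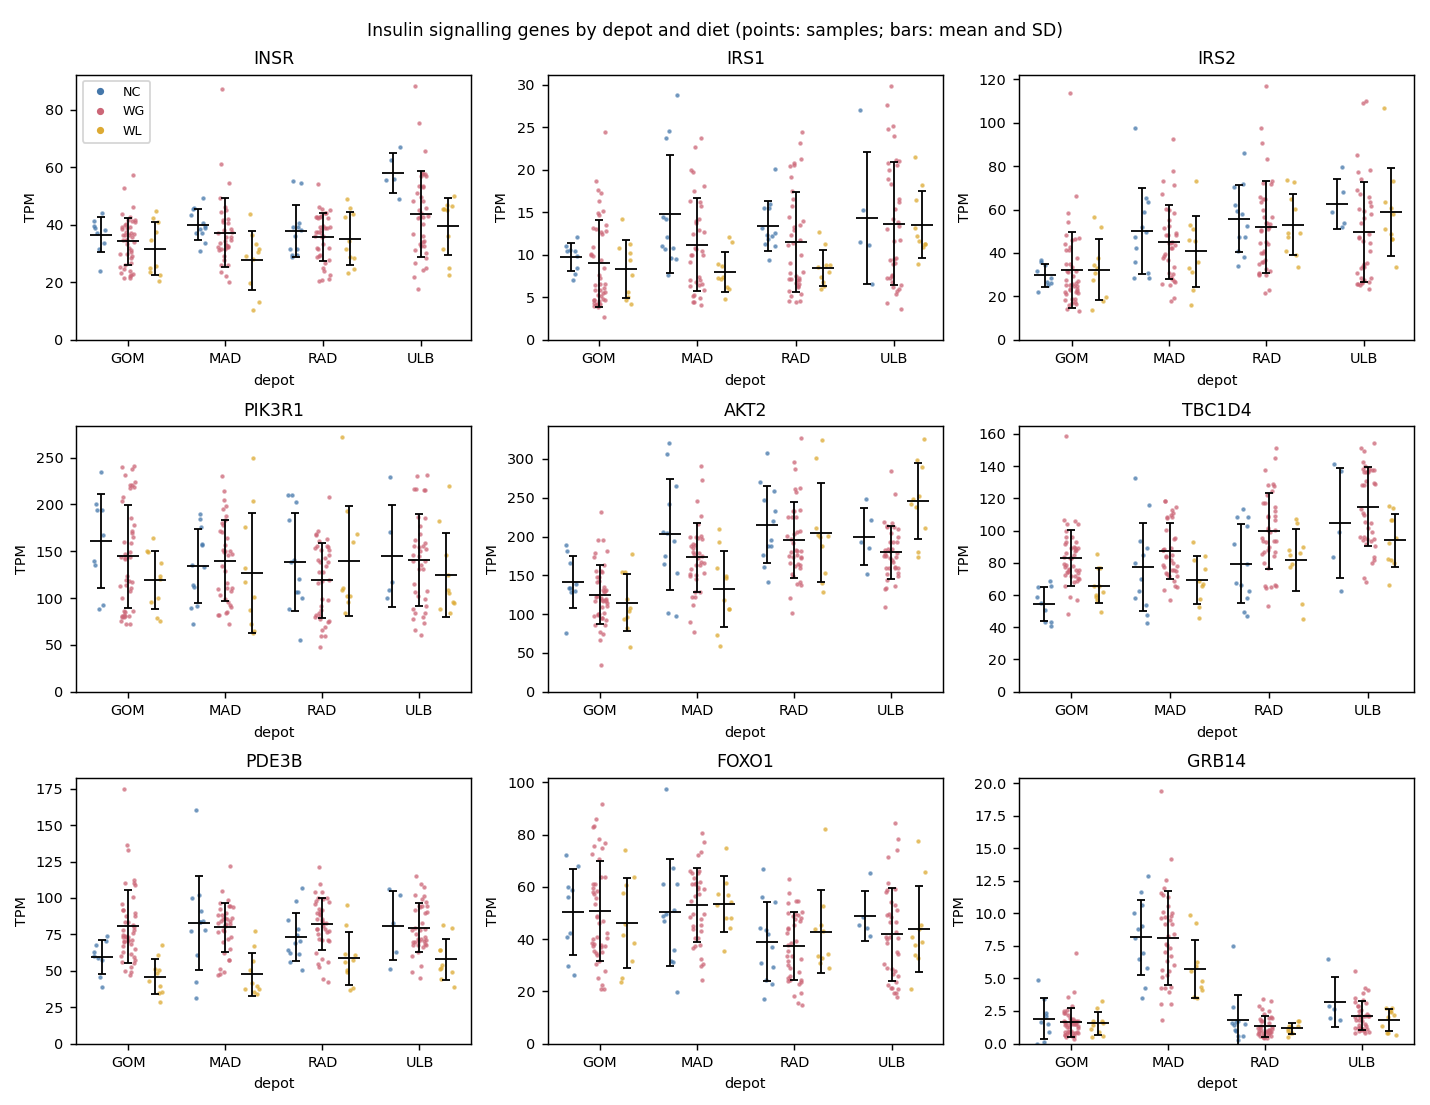
Expression (TPM, linear axis from 0) of each of the 9 genes by depot and diet; each point is 1 library, and bars give the mean and SD of a group (an SD that reaches below 0 is clipped at the axis). GRB14 was high in MAD under each diet, PDE3B means were lowest in WL, and IRS2 and AKT2 means were lowest in GOM in each diet.

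Differences were tested with edgeR's quasi-likelihood test on the counts of all genes detected in a comparison (13346 to 14440 genes). A gene was called when its Benjamini-Hochberg adjusted p was below 0.05 over all genes tested and its fold change exceeded 1.5, and errors are the SE of the log2 fold change. Between depots within a diet, 29 of 162 tests on the members were called, 23 of them higher and 6 lower in the depot named last. Between diets within a depot, 16 of 108 tests were called and all 16 were lower under the later condition. Over all genes, 0.507% to 15.4% were called higher and 1.87% to 20.7% lower in a single diet comparison. In a single depot comparison 0.509% to 13.3% were called higher and 1.4% to 12.1% lower. Comparisons that share a group of libraries are not independent of each other.

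**Figure D2:**
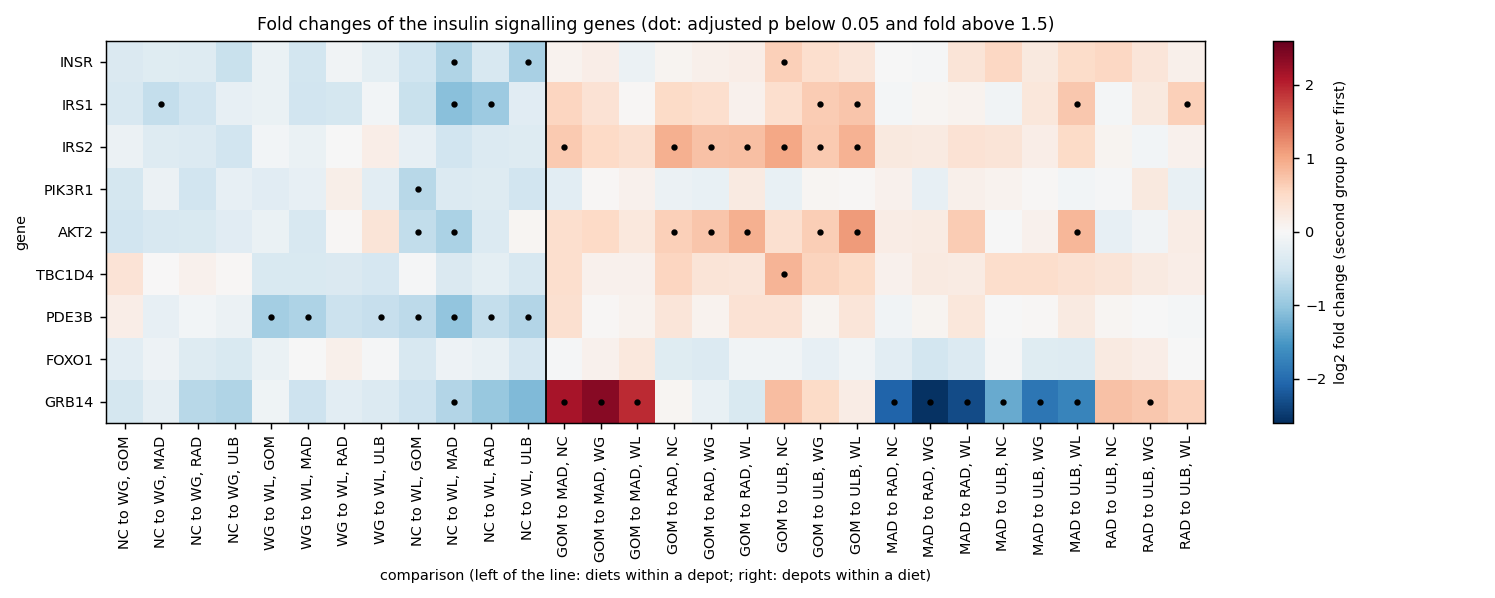
Log2 fold change (colour) of the 9 genes in the 30 comparisons, given as group 1 to group 2 with blue for lower and red for higher in group 2; a dot marks an adjusted p below 0.05 with a fold above 1.5. Dots left of the line (diets within a depot) were all on lower values, and GRB14 held the largest depot differences.

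GRB14, the receptor inhibitor, was highest in MAD under each diet. In NC its level ran from 3.51 to 12.9 TPM in MAD (median 8.45), against 0 to 4.92 in GOM (median 1.68), 0.272 to 7.49 in RAD (median 1.44) and 1.84 to 6.50 in ULB. The 5 NC ULB libraries stood at 2.91, 1.93, 2.68, 6.50 and 1.84 TPM. The NC groups overlapped, although 10 of the 12 MAD libraries exceeded every GOM library.

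In WG the MAD level ran from 1.84 to 19.4 TPM with a median of 7.96, and the means of GOM, RAD and ULB were 1.64, 1.33 and 2.13 TPM. Of the 36 WG MAD libraries, 33 exceeded every RAD library. In WL no MAD library (3.49 to 9.84 TPM, median 5.21) overlapped GOM (0.520 to 3.30), RAD (0.484 to 1.76) or ULB (0.655 to 2.74), with 10 libraries in each group. GRB14 was listed at 0 in 1 library.

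From GOM to MAD, GRB14 was higher by 2.13 ± 0.46 in NC (log2 fold change ± SE, adjusted p = 0.0021), 2.37 ± 0.17 in WG (adjusted p = 1.35e-20) and 1.93 ± 0.30 in WL (adjusted p = 0.00016). GRB14 was the only member called there in WG and WL, where 2.46% and 2.19% of all genes tested were called higher, and was called with IRS2 in NC, where 7.49% were. From MAD to RAD it was lower in each diet, by log2 fold changes of -2.08 ± 0.39, -2.57 ± 0.18 and -2.32 ± 0.24 (adjusted p = 0.0015, 4.7e-21 and 2.3e-06 in NC, WG and WL). No other member was called from MAD to RAD, and 1.9%, 3.65% and 5.76% of all genes were called lower. From MAD to ULB the changes were -1.31 ± 0.39, -1.88 ± 0.16 and -1.71 ± 0.27 (adjusted p = 0.040, 6.5e-17 and 0.00012), where 3.17%, 8.18% and 8.89% of genes were called lower. From RAD to ULB, GRB14 was higher in WG by 0.69 ± 0.18 (adjusted p = 0.0010), and 5.2% of genes were.

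In high-share libraries alone, the GRB14 difference from GOM to MAD was 1.37 in NC and 1.44 in WL on the log2 scale and was no longer called. The differences from MAD to RAD and to ULB were still called in each diet. Without NC MAD replicate 1, in which GRB14 stood at 6.92 TPM, the 3 NC differences were 2.15, -2.09 and -1.33 and were still called. Smooth muscle markers moved with MAD, with median sums of 889, 965 and 1207 TPM in NC, WG and WL against 278 to 739 TPM in the other groups. Over all libraries the level of GRB14 correlated with this sum at r = 0.327, and at r = -0.0718 once group means were removed. Removing group means also takes out the differences between depots, so the second value does not bear on them. The part of smooth muscle in the MAD level of GRB14 was not tested. The call from MAD to ULB in NC, which rests on 5 ULB libraries, was lost without replicate 2, 5, 7 or 12 (log2 fold changes from -1.29 to -1.13).

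Across diets GRB14 fell in MAD from NC to WL by 0.75 ± 0.24 on the log2 scale (adjusted p = 0.0148). The values in RAD (-0.98 ± 0.42, adjusted p = 0.063) and ULB (-1.15 ± 0.40, adjusted p = 0.055) did not pass in the main test. RAD was called in 1 fit over the 12 groups (-0.96, adjusted p = 0.026), and both were with DESeq2 (adjusted p = 0.048 and 0.038). The MAD fall was not called in high-share libraries (-0.67) or in 1 fit over the 12 groups (-0.73).

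**Figure D3:**
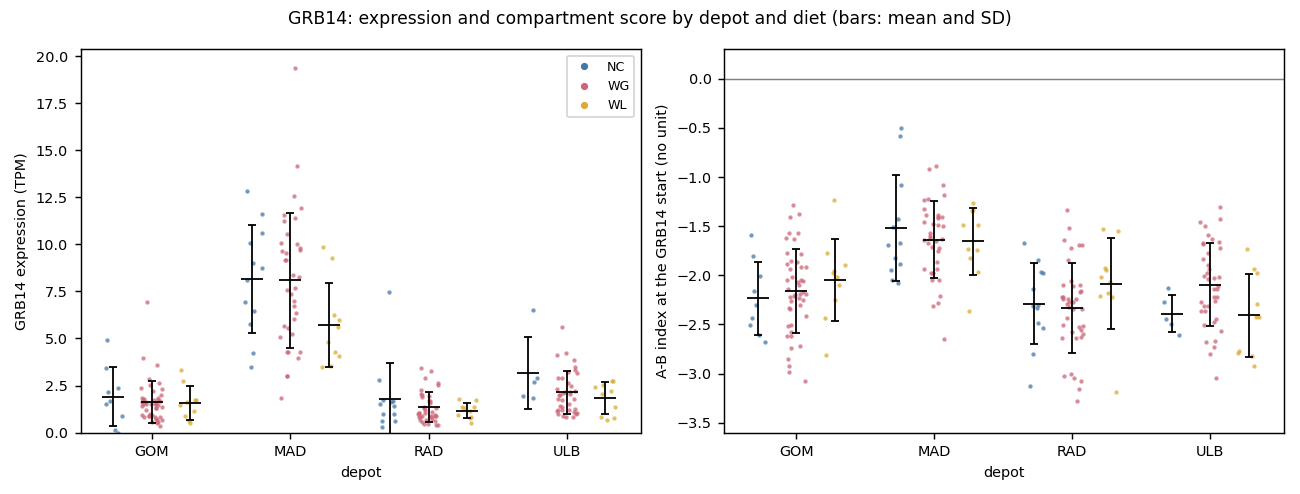
GRB14 expression (left, TPM) and the A-B index of the 20-kb bin that holds its start (right, no unit, 0 marked by a line) by depot and diet, with 1 point per sample and bars for the mean and SD. The MAD groups have the highest means in both panels, and the index is below 0 in all samples.

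The A-B index scores each bin of 20 kb by its preference for contacts with open (A, positive) or closed (B, negative) chromatin, and differences were tested with limma over 113298 bins and called at an adjusted p below 0.05 with a difference above 0.75. The bin of the GRB14 start was negative in all 240 samples, whereas 48.5% of bins were positive in the median sample. Its mean was nearest to 0 in MAD, at -1.52, -1.64 and -1.65 in NC, WG and WL, against -2.04 to -2.41 in the other 9 groups. It was called lower from MAD to RAD in NC (-0.77 ± 0.19, adjusted p = 0.015) and from MAD to ULB in NC (-0.87 ± 0.25, adjusted p = 0.027) and WL (-0.75 ± 0.18, adjusted p = 0.0062). In these comparisons 3.78%, 6.63% and 3.84% of all bins were called lower. The WG difference from MAD to RAD was -0.70 ± 0.10 (adjusted p = 1.5e-07), under the limit of 0.75. The GRB14 index was also not called from MAD to RAD in WL, from MAD to ULB in WG, or from GOM to MAD in any diet.

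INSR, the receptor, was highest in the subcutaneous depot of NC pigs. The 5 NC ULB libraries stood at 49.0, 55.8, 67.2, 55.6 and 62.6 TPM, all above the 9 NC GOM libraries, which ran from 24.1 to 44.2 TPM. The difference was 0.62 ± 0.12 (adjusted p = 0.0014). It was 0.59 with the replicate number as a block over 4 pairs of samples and was then not called (adjusted p = 0.077), nor was it on the same samples without the block (0.59) or in high-share libraries (0.71). IRS2, TBC1D4 and INSR were the 3 members called higher in that comparison, where 13.3% of genes were.

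INSR had its lowest mean in WL MAD, where 10 libraries ran from 10.4 to 43.6 TPM with a median of 29.9. From NC to WL it fell by 0.78 ± 0.15 in MAD (adjusted p = 0.00041) and by 0.84 ± 0.15 in ULB (adjusted p = 0.0017). In GOM and RAD the changes were -0.53 and -0.42 (adjusted p = 0.00078 and 0.0057), within the 1.5-fold limit. The MAD change was -0.55 in high-share libraries and was lost there.

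The docking proteins differed in pattern. IRS2 was lowest in GOM under each diet: NC GOM libraries ran from 21.8 to 37.0 TPM, and the 5 NC ULB libraries stood at 51.8, 68.0, 59.0, 53.9 and 79.8 TPM, with no overlap. From GOM to RAD it was higher by 0.92 ± 0.14, 0.77 ± 0.13 and 0.78 ± 0.20 in NC, WG and WL (adjusted p = 2.5e-05, 1.4e-06 and 0.0088). From GOM to ULB the differences were 1.00 ± 0.14, 0.68 ± 0.14 and 0.90 ± 0.22 (adjusted p = 5.7e-05, 1.9e-05 and 0.0038). IRS2 also passed from GOM to MAD in NC, by 0.68 ± 0.16 (adjusted p = 0.0051). In high-share libraries the differences from GOM to MAD and RAD in NC (0.86 and 1.02) and to RAD and ULB in WL (0.70 in both) were not called. No diet comparison of IRS2 passed at an adjusted p below 0.05.

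IRS1 was expressed below IRS2 and varied between libraries within most groups, from 2.70 to 24.4 TPM in WG GOM for example. It was higher in ULB than in GOM in WG (0.66 ± 0.16, adjusted p = 0.00036) and in WL (0.73 ± 0.19, adjusted p = 0.0062). In WL it was also higher in ULB than in MAD (0.70 ± 0.18, adjusted p = 0.0070) and RAD (0.61 ± 0.18, adjusted p = 0.0475). WL ULB ran from 8.91 to 21.5 TPM (median 11.9), and the WL medians of GOM, MAD and RAD were 8.53, 7.36 and 8.29 TPM. These 3 WL differences were not called when 1 fit was made over the 12 groups (adjusted p = 0.060, 0.069 and 0.39), and the difference from GOM was not in high-share libraries (0.74).

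IRS1 was the only member called from NC to WG, in MAD (-0.61 ± 0.21, adjusted p = 0.038), where 5.29% of genes were called lower, and not in high-share libraries (-0.66). No member was called from NC to WG in GOM, RAD or ULB, where 26.7%, 16.7% and 2.38% of genes were called in either direction. From NC to WL, IRS1 fell by 1.10 ± 0.23 in MAD (adjusted p = 0.00065) and by 0.95 ± 0.16 in RAD (adjusted p = 0.00012). In MAD it went from 7.66 to 28.8 TPM (median 11.53) to 4.84 to 12.1 TPM (median 7.36), with overlap.

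AKT2, the kinase that carries the metabolic response to insulin in fat, was lowest in GOM under each diet, and its log2 fold changes on weight loss had opposite signs in ULB and MAD. From GOM to RAD it was higher by 0.63 ± 0.18, 0.73 ± 0.088 and 0.92 ± 0.21 in NC, WG and WL (adjusted p = 0.010, 3.6e-11 and 0.0029). AKT2 and IRS2 were the members called there in each diet, beside 9.89%, 4.11% and 4.07% of all genes called higher. From GOM to ULB it was higher in WG (0.63 ± 0.082, adjusted p = 2.6e-10) and WL (1.11 ± 0.17, adjusted p = 2.1e-05). IRS1 and IRS2 were called with it in both, where 7.59% and 6.16% of genes were. In high-share libraries the differences from GOM to RAD in NC (0.76) and WL (0.63) and to ULB in WG (0.58) were not called. In NC the summed adipocyte markers also differed in this direction between GOM and the other depots. In WG their medians were 15380, 18480, 22410 and 16070 TPM in GOM, MAD, RAD and ULB. The sum of 2 mesothelial markers went the other way, with GOM medians of 72.4, 40.9 and 48.5 TPM in NC, WG and WL. Outside GOM the highest group median of that sum was 9.65 TPM, in NC MAD. The part of either marker set in the GOM differences was not tested.

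In WL the ULB libraries held 174 to 326 TPM of AKT2 (median 244.9) and the MAD libraries 59.5 to 209.7 TPM (median 132.5). The groups overlapped, and the difference was 0.86 ± 0.19 (adjusted p = 0.0031). AKT2 and IRS1 were called higher from MAD to ULB in WL, as were 5.54% of genes. From WG to WL, AKT2 changed by 0.34 ± 0.11 in ULB (adjusted p = 0.021) and by -0.42 ± 0.15 in MAD (adjusted p = 0.027), each within the fold limit. WG held 77.1 to 291 TPM in MAD (median 174) and 109 to 285 TPM in ULB (median 176). The difference between these diet effects, tested in 1 fit over all libraries, was 0.73 ± 0.20 (adjusted p = 0.0072), and 2.43% of genes were called higher in it. Of 108 such tests on the 9 members this was the only 1 to pass, and it was 0.64 and not called in high-share libraries. In MAD against RAD in WL, AKT2 stood at 0.66 ± 0.23 (adjusted p = 0.069) and passed with the replicate number as a block (0.65 ± 0.12, adjusted p = 0.0045, 10 pairs).

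From NC to WL, AKT2 fell by 0.65 ± 0.19 in GOM (adjusted p = 0.0057) and by 0.83 ± 0.21 in MAD (adjusted p = 0.0033). The values in RAD and ULB were -0.36 and 0.04 and did not pass. In high-share libraries the GOM value was -0.30 and not called.

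PIK3R1, which encodes the regulatory subunit of the lipid kinase, was the steadiest gene across groups, with means from 119 TPM in WG RAD to 161 TPM in NC GOM. No depot comparison of PIK3R1 was called. From NC to WL it fell in GOM by 0.72 ± 0.17 (adjusted p = 0.0014), from 88.7 to 235 TPM (median 168) to 75.3 to 165 TPM (median 122).

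PDE3B fell with weight loss. Its medians in GOM, MAD, RAD and ULB were 60.4, 83.4, 69.8 and 82.9 TPM in NC and 74.0, 82.6, 83.0 and 76.6 TPM in WG. In WL they were 45.8, 40.3, 56.6 and 52.9 TPM. Libraries of the groups overlapped in each depot: WL GOM ran from 28.3 to 67.5 TPM and WG GOM from 46.8 to 175 TPM.

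From WG to WL the change in PDE3B was -0.87 ± 0.16 in GOM (adjusted p = 0.00023), -0.81 ± 0.14 in MAD (adjusted p = 3.3e-05) and -0.59 ± 0.12 in ULB (adjusted p = 0.00034). In RAD it was -0.56 ± 0.14 (adjusted p = 0.0046), within the fold limit. PDE3B was the only member called from WG to WL, where 2.71%, 9.17% and 4.9% of genes were called lower in GOM, MAD and ULB; in RAD 6.37% of genes were called in either direction and no member was. From NC to WL it fell in each depot, by 0.69 ± 0.13, 1.02 ± 0.19, 0.62 ± 0.14 and 0.75 ± 0.17 in GOM, MAD, RAD and ULB (adjusted p = 0.00019, 0.00022, 0.0012 and 0.0066). No comparison of PDE3B between depots was called. In high-share libraries the 4 falls from NC to WL were still called, and those from WG to WL in MAD (-0.61) and ULB (-0.53) were not, while that in RAD was (-0.59, adjusted p = 0.0060).

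TBC1D4, the substrate of AKT2 that gates GLUT4, was highest in ULB. The 5 NC ULB libraries stood at 141, 83.8, 137, 62.7 and 99.4 TPM and the 9 NC GOM libraries ran from 40.7 to 68.5 TPM, so that 1 ULB library lay within the GOM range. The difference was 0.88 ± 0.18 (adjusted p = 0.0016) and the only TBC1D4 value called in the main test. It was 0.97 and not called in high-share libraries, in which TBC1D4 was called lower from NC to WL in ULB (-0.61, adjusted p = 0.049). In 1 fit over the 12 groups it was also called from GOM to RAD in NC (0.59, adjusted p = 0.0037). From WG to WL it changed by -0.39, -0.39 and -0.43 in GOM, MAD and ULB (adjusted p = 0.027, 0.013 and 0.020), within the fold limit. In NC the sum of 6 progenitor and fibroblast markers was also highest in ULB. Its medians were 2989, 2547, 3302 and 12180 TPM in GOM, MAD, RAD and ULB. The part of these cells in the ULB levels of TBC1D4 and INSR was not tested.

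FOXO1 was called in no comparison. Its values passed the adjusted p alone in 3, all in WG: -0.48 from MAD to RAD (adjusted p = 0.00019), -0.36 from GOM to RAD (adjusted p = 0.0066) and -0.32 from MAD to ULB (adjusted p = 0.012). Group medians ran from 37.9 TPM in WG RAD to 56.2 TPM in NC GOM. No member was called from RAD to ULB in NC, where 4.32% of genes were called in either direction, and IRS1 was the only member called there in WL, where 2.29% were called higher.

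Weight loss against the normal condition gave the largest number of member calls between diets, with 12 of 36 tests lower and none higher. In GOM 3 members fell (AKT2, PDE3B and PIK3R1) while 20.7% of all genes were called lower. In MAD 5 fell (AKT2, GRB14, INSR, IRS1 and PDE3B, against 17.8% of genes), in RAD 2 (IRS1 and PDE3B, against 16.6%) and in ULB 2 (INSR and PDE3B, against 9.37%). The median log2 fold change of the 9 members was -0.54, -0.75, -0.36 and -0.44 in GOM, MAD, RAD and ULB, and that of all genes lay between -0.0288 and -0.00113.

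These counts depend on the scale. When TPM values were compared as deposited (limma on log2(TPM + 1)), the median of all genes rose by 0.13 to 0.29 from NC to WG and from NC to WL, whereas it was within 0.03 of 0 on the scale of the main test. On the TPM scale, 5 of the 12 falls from NC to WL were called (AKT2, INSR, IRS1 and PDE3B in MAD and IRS1 in RAD). Of all genes tested there, 1565 of 14440, 1067 of 14170, 867 of 13782 and 475 of 13878 were called lower in GOM, MAD, RAD and ULB. Of the 3 falls from WG to WL, 2 were called (PDE3B in GOM and MAD), beside 192 of 13906 and 689 of 13918 genes called lower. IRS1 from NC to WG was not called. TBC1D4 was called higher in GOM from NC to WG on that scale, as were 2932 of 14251 genes. Between depots, AKT2 and IRS1 from GOM to ULB in WG (0.56 and 0.54) and GRB14 from RAD to ULB in WG (0.42) were not called on it. INSR from RAD to ULB in NC was (0.63), as were 398 of 13749 genes called higher. Over all genes, the lower calls made up 53.9% to 63.5% of calls from NC to WL in the main test and 17.5% to 28.1% on the TPM scale. From NC to WG these shares were 49.6% to 78.6% and 14.6% to 30%, and from WG to WL 51.6%, 64.8% and 60.3% in GOM, RAD and ULB against 41%, 43.4% and 29.2%. Between depots the share moved by over 10 percentage points from GOM to MAD in WL (63.4% and 81.1%), GOM to RAD in NC (49.2% and 59.8%) and MAD to ULB in WL (61.6% and 47.6%). No member called in the main test changed direction. The summed macrophage markers also rose from NC to WL, in MAD from a median of 473.5 to 1353 TPM. Summed B cell and T cell markers in WL MAD had medians of 22.62 and 75.23 TPM, with highest values of 579.3 and 697.9 TPM. The NC MAD medians were 20.6 and 47.27 TPM, and the highest B cell sum there was 31.85 TPM. The part of macrophages, B cells and T cells in the values of the members, WL MAD included, was not tested.

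Of a further 73 insulin pathway genes, 71 were found and 70 were tested in each comparison. From NC to WL 19, 18, 14 and 5 of them were lower and 3, 5, 2 and 1 higher in GOM, MAD, RAD and ULB. The lower share was 27.1%, 25.7%, 20% and 7.14%, beside the 20.7%, 17.8%, 16.6% and 9.37% of all genes given above. The higher share was 4.29%, 7.14%, 2.86% and 1.43%, beside 15.4%, 15.2%, 10.2% and 5.39% of all genes. From WG to WL 3, 8, 3 and 3 were lower and 0, 2, 0 and 1 higher, with list medians of -0.13, -0.15, -0.14 and -0.02 beside -0.041, -0.015, -0.0070 and -0.023 for all genes. The lower share of the list was 4.29%, 11.4%, 4.29% and 4.29%, near the 2.71%, 9.17%, 4.13% and 4.9% of all genes, and the higher share was 0%, 2.86%, 0% and 1.43% beside 2.55%, 8.26%, 2.24% and 3.22%.

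Among the called genes of this list, the largest fall from WG to WL in each depot was in ACLY, which makes the acetyl-CoA used for fatty acid synthesis. Its mean went from 313 ± 233 (SD, n = 45) to 52.6 ± 11.8 TPM (n = 10) in GOM, and the log2 fold changes in GOM, MAD, RAD and ULB were -2.61 ± 0.40, -2.76 ± 0.47, -2.02 ± 0.35 and -1.99 ± 0.30 (adjusted p = 1.4e-05, 3.0e-05, 8.1e-05 and 3.0e-06). RHOQ, a small GTPase linked to GLUT4 transport, fell in the same 4 comparisons, by 1.02, 1.15, 0.68 and 0.62. SLC2A4, which encodes GLUT4 itself, fell by 1.00 in GOM and 0.92 in ULB (adjusted p = 0.0074 and 0.0020), and rose by 0.76 in GOM from NC to WG (adjusted p = 0.020). VAMP2, a SNARE protein of vesicle fusion, fell from NC to WL by 1.90 in GOM, 1.87 in MAD and 1.78 in RAD (adjusted p = 5.0e-09, 0.00039 and 0.00035). The TPM means of these genes moved the same way as their fold changes.

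From NC to WG 3, 2, 2 and 0 of the list were higher and 6, 3, 3 and 0 lower in GOM, MAD, RAD and ULB. These shares (4.29%, 2.86%, 2.86% and 0% higher, 8.57%, 4.29%, 4.29% and 0% lower) were below those of all genes (12.2%, 5.38%, 7.1% and 0.507% higher, 14.5%, 5.29%, 9.6% and 1.87% lower). SH2B2, an adaptor of the receptor, rose in GOM, MAD and RAD (0.85, 0.79 and 1.02), as did SOCS3, a feedback inhibitor of cytokine and insulin signals, in MAD (1.13 ± 0.29, adjusted p = 0.0058) and RAD (1.04 ± 0.26, adjusted p = 0.0014). GRB10, the close relative of GRB14, fell in MAD (-0.61 ± 0.14, adjusted p = 0.0025) and RAD (-0.72 ± 0.15, adjusted p = 0.00028). IGF1R, the receptor most like INSR, fell in GOM (-0.83) and MAD (-0.61).

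Elsewhere the A-B index was called at 5 of the genes. It was higher at AKT2 (0.89 ± 0.24, adjusted p = 0.015) and lower at PDE3B (-0.93 ± 0.24, adjusted p = 0.0099) from GOM to ULB in NC, where 11% and 9.44% of bins were called higher and lower. It was higher at IRS2 from GOM to MAD in NC (0.77 ± 0.23, adjusted p = 0.026, with 5.12% of bins), at IRS1 from NC to WG in ULB (0.83 ± 0.27, adjusted p = 0.042, with 5.57%) and at INSR from NC to WL in RAD (0.77 ± 0.16, adjusted p = 0.00061, with 15.2%). The index of all bins also moved up there, by a median of 0.0933 (GOM to MAD, NC), 0.247 (NC to WG, ULB) and 0.285 (NC to WL, RAD). AKT2 had the highest index, with group means from 4.29 to 5.22. The PDE3B bin lay near 0, and was positive in 8 of 9 NC GOM samples and 1 of 5 NC ULB samples. INSR went the opposite way in expression from NC to WL in RAD (-0.42), and PDE3B expression was not called between GOM and ULB.

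None of the 8 index calls on the members held when the mean of all bins of the gene replaced the bin of its start. With quantile normalization of the index, 3 of the 8 held: PDE3B and IRS2 in NC and GRB14 from MAD to ULB in NC. The IRS1 call was lost on leaving out each of the 5 NC ULB samples in turn, that of GRB14 from MAD to ULB in NC without replicate 2, 5, 9 or 12 (-0.90 to -0.82), and the AKT2 call without NC ULB replicate 2 (0.73).

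H3K27ac, a mark of active enhancers, was deposited as 18 tables of ranked regions, 1 for each group or subgroup of pigs (5 of GOM, 5 of MAD, 4 of RAD and 4 of ULB). Samples were pooled within a table, except that the labels used here list a single H3K27ac sample for NC MAD. The tables came without values per animal, so no test was made. Regions within 10 kb of each gene were taken, and the authors' tables leave out the 2 kb around gene starts. FOXO1 and PIK3R1 had the best ranks, with a super-enhancer (a cluster of top-ranked regions) in 16 and 17 of the 18 tables. Between 5.72% and 27.8% of 18708 autosomal PCGs had such a region, depending on the table. The window covers the whole gene and is wider for longer genes, and this share was not matched for gene length. FOXO1 spans 92838 bases and PIK3R1 88870. The FOXO1 region was ranked 1 of 25819 in a WG GOM table, and the median best rank was in the top 0.449% for FOXO1 and the top 0.737% for PIK3R1.

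INSR had a super-enhancer in 5 of 5 GOM tables, 2 of 5 MAD, 0 of 4 RAD and 1 of 4 ULB, although its transcript was not highest in GOM. AKT2 had one in 2 of the 4 RAD tables and 3 of the 4 ULB tables, and in no table of GOM or MAD. PDE3B and TBC1D4 had 2 each, and IRS1, IRS2 and GRB14 none. GRB14 had a region in 5 of 5 GOM, 5 of 5 MAD, 3 of 4 RAD and 1 of 4 ULB tables, and these ranked low, with a best rank between 36.1% and 87.9% of a table.

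**Figure D4:**
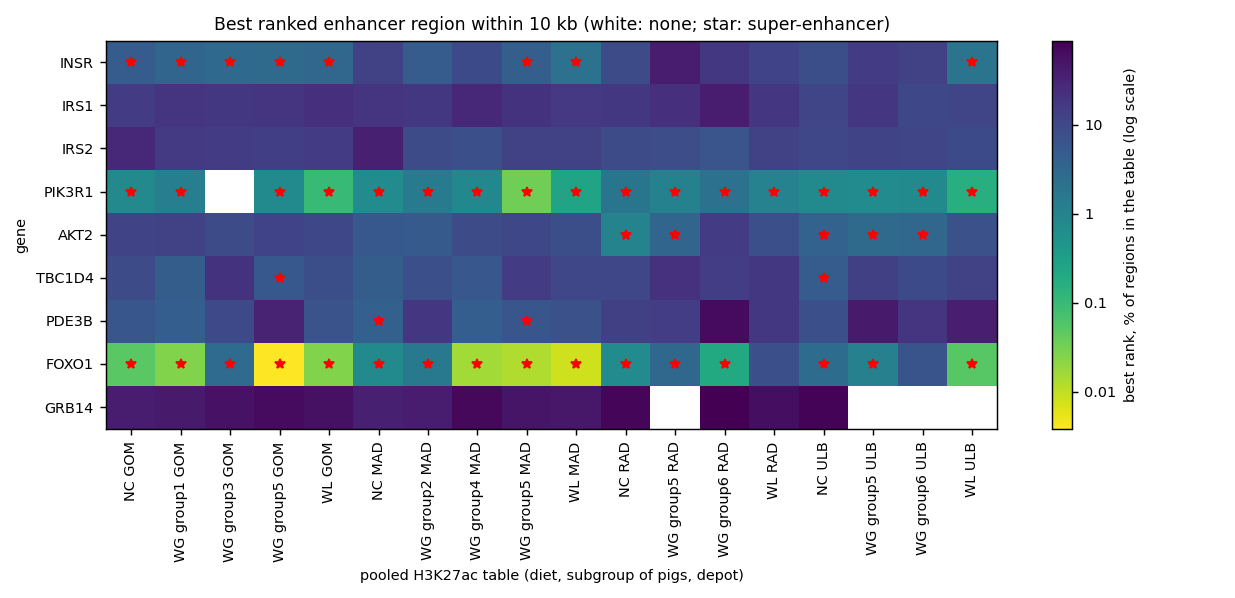
Best rank of an H3K27ac enhancer region within 10 kb of each gene, as the percentage of the regions of the table (colour, log scale, yellow for top ranks), in the 18 tables; white marks no region and a star a super-enhancer. FOXO1 and PIK3R1 carry stars in 16 and 17 tables, and GRB14 lacks a region in 4 tables, of which 3 are of ULB.

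The genes most like each member were sought by Pearson's r of log2(TPM + 1) over all libraries among 13843 genes, as a description of libraries that share animals, diets and depots. FOXO1 was most like FOXO3, its paralogue (r = 0.874), and IRS1 most like PDE4A, a cAMP phosphodiesterase (r = 0.892). IRS2 and AKT2 had the same nearest gene, PC, the mitochondrial pyruvate carboxylase (r = 0.832 and 0.732). With group means removed, r was 0.803 for IRS2 and 0.603 for AKT2, which was then closer to FZD4 (r = 0.688). TBC1D4 was nearest to ELOVL7, a fatty acid elongase (r = 0.823), INSR to FOXN3 (r = 0.782), PIK3R1 to ARMH3 (r = 0.809) and PDE3B to ALDH1L2 (r = 0.698). GRB14 was nearest to KCNMB1, a potassium channel subunit of smooth muscle (r = 0.634), which dropped to r = 0.163 once group means were removed. Among the members the closest pairs were IRS1 with IRS2 (r = 0.756) and PIK3R1 with FOXO1 (r = 0.756), and TBC1D4 with FOXO1 was the lowest (r = -0.377).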

How the data were processed

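RNA-seq, Hi-C and H3K27ac ChIP-seq of pig adipose tissue were analysed from the processed files. The authors estimated transcript abundance with kallisto 0.43.0 and summed it by gene with tximport, and deposited expected counts and TPM. Of the deposited estimated counts 17.8% were 0 and none of the others was whole (within 1e-09), so they were rounded. The A-B index is a score that the authors computed from Hi-C maps balanced by the Knight-Ruiz method and normalized with BNBC. The authors ranked regions with ROSE on reads pooled by group or subgroup, and only its ranks and super-enhancer marks were used; reads were aligned with BWA 0.7.15 and processed with SAMtools 1.3.1 and SICER, per the labels. Tables of other RNA classes and other Hi-C features were not used here, and 9 columns of the expression tables and 9 of the index table, which match no label, were left out.

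Groups came from the labels. Genes detected (TPM over 0.5) in 80% or more of either group's libraries were tested with edgeR 4.0.16 (quasi-likelihood, TMM), each comparison on its own 2 groups, which gave 12 diet and 18 depot comparisons. Differences of a diet effect between depots were tested in 1 fit over 12 groups. The index was tested with limma 3.58.1, and the steps were tested on simulated data. Adjusted p-values are Benjamini-Hochberg over all genes or bins. Replicates are separate animals within a group, and p-values measure the spread between these samples. Each pig gave all depots, but no source used here states that a replicate number marks a pig, so whether numbers pair the samples was judged from the data. Every pair of samples of the same number deviated together (r above 0.1) in 4 of 18 depot comparisons: GOM to ULB in NC, MAD to RAD in WL, and MAD to ULB and RAD to ULB in WG. The main depot tests used no block in any comparison, so their p-values take samples of the same pig as independent.

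Members and lists were chosen with earlier results of these data known. From the pathway list, up to 3 called genes of largest fold in each direction were eligible to be named in each diet comparison and depot, and for likeness the 3 of highest r. Alternatives were DESeq2 1.42.0, RLE factors, no filter, 1 fit over 12 groups, high-share libraries, a term for that share, adjusted p alone, the replicate block, leaving out each NC ULB replicate, quantile normalization, all bins of a gene, 50 kb and a pseudocount of 0.1. Those chosen after seeing the data were the samples of the block fitted without it, limma on log2(TPM + 1) and leaving out NC MAD replicate 1. Python 3.11.15, pandas 2.3.3, scipy 1.17.1, matplotlib 3.10.9 and R 4.3.3 were used. No amino acid sequence is shown.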

Additional observations from a re-analysis of the deposited data

Results flagged for a closer look

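Single samples lay apart from the rest of their group in 6 of the group values of the 9 members, by the ratio of the gap to the range (Dixon's test at 95%, groups of 4 to 10 samples). For TPM 54 groups were tested and 2 values stood apart, and for the A-B index 54 were tested and 4 stood apart; chance gives about 1 in 20.

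FOXO1 reached 82.3 TPM in WL RAD replicate 9, with 52.7 TPM the next highest. GRB14 reached 6.5 TPM in NC ULB replicate 9, with 2.91 TPM the next. The A-B index of GRB14 was -3.19 in WL RAD replicate 4, with -2.22 the next lowest. The index of INSR was 3.40 in NC ULB replicate 2, with 2.31 the next highest. The index of IRS1 was -0.19 in WL RAD replicate 7, with 0.87 the next lowest, and that of PDE3B was -1.37 in WL RAD replicate 10, with -0.45 the next lowest.

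The AKT2 effect of weight loss differed between depots in the main test. The log2 fold change from WG to WL in ULB exceeded that in MAD by 0.73 (edgeR, adjusted p = 0.0072). In high-share libraries this difference was 0.64 and was not called (edgeR, adjusted p = 0.475).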

How the results depend on the processing

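The limits are these: NC ULB has 5 libraries, high-share NC GOM has 2, H3K27ac tables have no replicates, and the TPM and count scales disagree on the level of all genes against NC. No called value of a member changed sign under any alternative that was run. RLE factors lost none of the 46 called values and DESeq2 none of the 45 on which it was run, and high-share libraries kept 27. Without the filter AKT2 from NC to WL in GOM (-0.55), GRB14 from MAD to ULB in NC (-1.31), IRS1 from RAD to ULB in WL (0.60), PDE3B from NC to WL in RAD (-0.57) and from WG to WL in ULB (-0.58) were not called.

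Counts of member calls moved as follows, with the main count in parentheses. For these counts, and those of the other pathway genes below, the share of all genes at the same setting is not given here. They describe the settings and are no result about the genes. With the adjusted p alone, NC to WG gave 1 higher (0) and 10 lower (1), WG to WL 1 higher (0) and 9 lower (3), GOM to MAD 7 higher (4), GOM to RAD 11 higher (6) and 1 lower (0), MAD to ULB 6 higher (2) and RAD to ULB 6 higher (2). In high-share libraries NC to WG gave 0 lower (1), GOM to MAD 1 higher (4), GOM to RAD 2 (6), GOM to ULB 5 (9) and the difference of diet effects 0 (1). In 1 fit over 12 groups NC to WG gave 2 lower, MAD to RAD 1 higher (0), MAD to ULB 1 higher and RAD to ULB 1 higher; DESeq2 gave 1 higher from MAD to RAD, and no filter 1 higher from RAD to ULB. A term for the share gave 3 lower from NC to WG. On the TPM scale NC to WG gave 1 higher and 0 lower, and NC to WL 5 lower (12). With the replicate block MAD to RAD gave 1 higher.

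For the other pathway genes, NC to WG gave 3 higher in high-share libraries, 14 with the term, 23 by adjusted p alone and 20 on the TPM scale (7), and 4, 31 and 2 lower in high-share libraries, by adjusted p alone and on the TPM scale (12). WG to WL gave 1, 1, 8 and 5 higher in high-share libraries, with the term, by adjusted p and on the TPM scale (3), and 11 and 30 lower in high-share libraries and by adjusted p (17). NC to WL gave 21 higher by adjusted p and 33 on the TPM scale (11), and 25 lower on the TPM scale (56). Between depots 21 were higher and 33 lower in high-share libraries, and 106 and 138 by adjusted p (47 and 71).

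Of the index calls between diets, 2 were higher in the main test, 0 with quantile normalization, 0 with all bins of the gene and 13 by adjusted p alone, and 3 were lower with quantile normalization (0). Between depots 1, 1 and 19 were higher (2) and 2, 1 and 17 lower (4) under the same settings, and 1 was higher with the replicate block. By adjusted p alone, 4267 to 34775 of all 113298 bins were higher in a single diet comparison. In a single depot comparison 1856 to 46290 bins were higher and 355 to 31903 lower.

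Leaving out NC ULB replicates gave 1 to 1 index call higher between diets and 1 to 3 higher between depots. Leaving out single libraries otherwise gave 9 to 10 calls from GOM to ULB, 2 to 3 lower from MAD to ULB and 12 to 13 lower from NC to WL; without NC MAD replicate 1, IRS1 was also called from GOM to MAD in NC (0.59).

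In the other 14 depot comparisons not every pair of the same number exceeded r = 0.1, although most did in WG (35 of 36 pairs from GOM to MAD, with a median r of 0.664 against -0.102 for other numbers). Every sample correlated best with its own number only from GOM to ULB in NC. In these 14 comparisons the replicate block lost GRB14 from MAD to ULB in NC (-1.67) and IRS2 from GOM to MAD in NC (0.55), both also lost on the same samples without the block, and added IRS2 from GOM to MAD in WG (0.59). It also lost the index calls of GRB14 from MAD to ULB in NC (-1.02, 5 pairs, with 0 bins called in either direction) and of IRS2 from GOM to MAD in NC (0.80). In the 4 other comparisons it changed no call of a member beyond INSR and AKT2 given above. Counts of enhancer pairs were alike at 50 kb.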
